A study of Mus musculus with 9 samples.

Results

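The genes of mature, myelinating oligodendrocytes were compared between the layers of the mouse piriform cortex, the 3-layered cortex that receives the output of the olfactory bulb. The 9 genes are Mbp, Mog, Mag, Mobp, Cnp, Mal, Cldn11, Ugt8a and Ermn, and they were picked by name from the 33940 genes with an annotated transcript in the count tables. Each gene was represented by its transcript with the highest mean count over all samples, and all 9 passed the filter on low counts (at least 10 counts in at least 3 samples). The tissue came from untreated wild-type C57BL/6 mice aged 8 weeks according to the sample labels, whereas the study's methods give another age. Each of the layers, called A, B and C in the labels with no key to layers I, II and III, was cut from fresh-frozen sections with a laser in 3 samples, numbered 1 to 3. By the labels the layers differ in the area that was cut, and nothing in the labels says whether samples came from separate mice, so p-values measure the spread between these samples, which may be technical.

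Oligodendrocytes wrap axons in myelin, a stack of tightly compacted membrane that speeds conduction and feeds the axon. Its genes are switched on together when a precursor matures, under the transcription factors Olig2, Sox10 and Myrf. Compact myelin is held together by Mbp, Mobp and Mal, its outer and innermost surfaces carry the adhesion proteins Mog and Mag, tight junctions of Cldn11 seal its edges, and Cnp and Ermn belong to the cytoplasmic and cytoskeletal compartments. Ugt8a makes galactosylceramide, the characteristic lipid of the sheath.

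Total counts ranged from 23104306 to 76471683 per sample, with layer C sample 3 the deepest and sample 3 the deepest in each layer. The share of counts from mitochondrial ribosomal RNA ranged from 55.3% to 70.2% for layer A, from 12.8% to 28.1% for layer B and from 20.5% to 57.1% for layer C. Levels are given as CPM, the count over the sample's total after scaling by the TMM factor of edgeR. These factors ran from 0.467 to 0.919 for layer A, from 1.09 to 1.63 for layer B and from 0.679 to 1.54 for layer C, and 3 counts, taken as the floor of detection, corresponded to 0.0256 to 0.254 CPM. The lowest count of any of the genes in any sample was 9, for Mag in layer C sample 2. Layer B sample 3 stood apart from its group. Over all tested transcripts its log2 CPM correlated with samples 1 and 2 at r = 0.888 and 0.880, against 0.978 between those samples. Pairs within layer A were at 0.894 to 0.913 and within layer C at 0.905 to 0.960. Values nearly as low thus occurred in the other layers. The interneuron gene Sst was at 72.9 CPM in layer B sample 3 against 4.36 and 4.27 in samples 1 and 2. Results of the 9 genes are therefore given with and without layer B sample 3, and those of the gene lists where stated.

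The myelin genes had lower levels in layer B than in layer A, and of the 9 genes Cnp, Mal and Ugt8a passed the test (3 of 9). All 9 had a positive log2 difference of A over B, with a median of 1.37 against -0.12 over all 56416 transcripts tested. Of those transcripts 16.5% passed the same test (edgeR quasi-likelihood F-test, adjusted p under 0.05) and 10.7% passed it with the higher level in layer A. With 1 transcript a gene, 4 of 9 passed against 24.3% of the genes tested. With counts summed by gene, 3 of 9 did against 22.7%. In 4 of 9 genes, namely Cnp, Mal, Cldn11 and Ugt8a, every sample of layer A lay above every sample of layer B, as in 17.2% of all transcripts. Layers A and B did not overlap in their mitochondrial share or scaling factor either. With mitochondrial transcripts left out, the count was again 3 of 9. That fit kept 56390 of the 56416 transcripts from the same libraries, so it cannot test these library differences. Their part was not tested. Between layers A and C no gene passed, and between layers B and C no gene passed although all 9 had lower means in B. The spread within layers was wide: layer C sample 3 held the highest level of all 9 samples for 9 of 9 genes, 8.24-fold to 23.8-fold above the lowest sample, and layer B samples 1 and 2 were the lowest pair for 8 of 9. In bulk tissue, fewer oligodendrocytes and less myelin RNA per oligodendrocyte cannot be told apart.

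**Figure D1:**
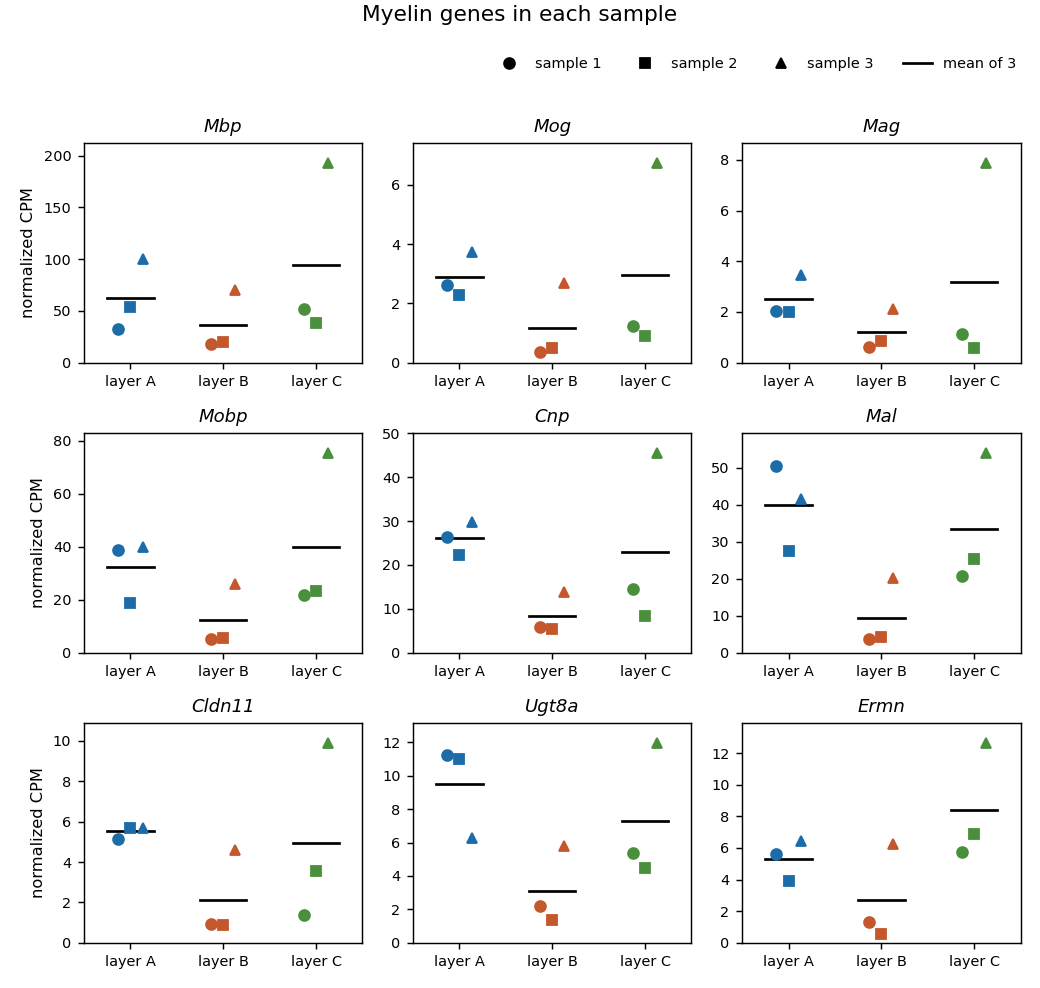
Normalized CPM (y axis, linear from 0, one scale for each gene) of the 9 myelin genes in the samples of layers A, B and C, with marker shapes for samples 1, 2 and 3 and a bar for the mean of 3. Layer C sample 3 is the highest point in every panel, and layer B samples 1 and 2 are the lowest pair in every panel but that of Mag.

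Mal encodes a proteolipid that sorts membrane to myelin and showed the largest difference of the 9 between layers A and B. Its level was 50.5, 27.5 and 41.4 CPM in samples 1, 2 and 3 of layer A, 3.80, 4.36 and 20.3 in layer B, and 20.8, 25.3 and 54.0 in layer C. All layer A samples lay above all layer B samples, all layer C samples also lay above layer B, and layers A and C overlapped. The log2 difference of A over B was 2.07 ± 0.568 (SE, edgeR adjusted p = 0.0206), and Mal was the only gene of the 9 called when all layers were tested at once (edgeR adjusted p = 0.0472), as were 14.3% of all transcripts.

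Cnp encodes the enzyme CNPase, which keeps cytoplasmic channels open within the sheath. It was at 26.2, 22.2 and 29.8 CPM in layer A, at 5.82, 5.52 and 13.9 in layer B, and at 14.6, 8.48 and 45.5 in layer C. Layer A was tight (26.1 ± 3.78 CPM, SD, n = 3) and stood clear of layer B (8.41 ± 4.76), while layer C spanned both. The log2 difference of A over B was 1.63 ± 0.525 (SE, edgeR adjusted p = 0.0444).

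For Ugt8a, the galactosyltransferase of myelin lipid synthesis, the values were 11.3, 11.02 and 6.28 CPM in layer A, 2.18, 1.34 and 5.77 in layer B, and 5.40, 4.47 and 11.95 in layer C. The lowest layer A sample exceeded the highest layer B sample by a narrow margin, and sample 3 was the lowest of layer A here, unlike in 7 of the 9 genes, where it was the highest. The log2 difference of A over B was 1.61 ± 0.528 (SE, edgeR adjusted p = 0.0485), just inside the threshold.

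Cldn11, the claudin of myelin tight junctions, which arachnoid cells of the meninges also make, was at 5.16, 5.68 and 5.71 CPM in layer A. In layer B it was at 0.921, 0.877 and 4.58, and in layer C at 1.37, 3.57 and 9.90. The layer A samples agreed closely (5.52 ± 0.306 CPM, SD, n = 3) and lay above all of layer B, but the log2 difference of 1.37 ± 0.681 (SE) did not pass (edgeR adjusted p = 0.198).

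Mobp, a small basic protein of compact myelin, was at 38.8, 18.6 and 39.7 CPM in layer A, at 5.01, 5.63 and 26.1 in layer B, and at 21.6, 23.2 and 75.3 in layer C. Layer B sample 3 lay within the range of layer A. The log2 difference of A over B was 1.40 ± 0.609 (SE, edgeR adjusted p = 0.137). The transcripts with the highest counts of Mobp and Cnp are annotated as a nonsense-mediated decay target and as a processed transcript. With the most abundant protein-coding transcript in their place, the difference was 1.48 for Mobp (edgeR adjusted p = 0.0923) and 1.63 for Cnp (edgeR adjusted p = 0.0448).

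Mbp, the major basic protein of compact myelin, whose mRNA is carried into the processes that wrap the axon, was at 32.9, 53.9 and 99.8 CPM in layer A. It was at 17.9, 19.95 and 70.4 CPM in layer B and at 52.2, 38.3 and 193 CPM in layer C. Sample 3 was the highest in each layer, the layers overlapped, and the difference of A over B was the smallest of the 9 (log2 0.79 ± 0.614, SE, edgeR adjusted p = 0.438).

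Mog, an immunoglobulin-domain protein of the outermost lamella, was at 2.62, 2.27 and 3.74 CPM in layer A, 0.359, 0.485 and 2.69 in layer B, and 1.25, 0.893 and 6.75 in layer C. Mag, the adhesion molecule that faces the axon, was at 2.03, 2.00 and 3.47 CPM in layer A, 0.606, 0.854 and 2.12 in layer B, and 1.13, 0.574 and 7.88 in layer C. For both genes layer B sample 3 reached into layer A and layer C samples 1 and 2 lay below layer A. The log2 differences of A over B were 1.30 ± 0.780 for Mog and 1.08 ± 0.759 for Mag (SE, edgeR adjusted p = 0.299 and 0.383).

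Ermn encodes ermin, a cytoskeletal protein of late oligodendrocytes, and was at 5.59, 3.94 and 6.43 CPM in layer A, 1.30, 0.531 and 6.27 in layer B, and 5.72, 6.89 and 12.6 in layer C. It was the gene with the highest mean in layer C relative to layer A (log2 A over C -0.66 ± 0.640, SE). The log2 difference of A over B was 0.98 ± 0.648 (SE, edgeR adjusted p = 0.350). An exon of Ermn shares 237 bases with Galnt5 on the opposite strand, and the libraries do not keep strand, so reads there cannot be told apart. Transcripts of Galnt5 held 0 to 48 counts per sample and Ermn held 23 to 1483.

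Layers A and C were compared in the same way. Of the 9 genes 4 had the higher fitted level in A and 5 in C, the median log2 difference was -0.07, and none passed (0 of 9 by edgeR and by DESeq2, 0 at an unadjusted p under 0.05), against 11.3% of all transcripts by the adjusted and 24.5% by the unadjusted p of edgeR. The SE of these differences ran from 0.511 to 0.759, and the missed threshold does not show that the layers were alike. Layer C sample 3 decided the direction. Without it 8 of 9 genes were higher in A, with Ermn the exception at -0.22, the median became 0.97, and still none passed, against 9.07% of all transcripts.

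Between layers B and C all 9 genes were lower in B, with log2 differences from -1.82 for Mal to -1.23 for Cldn11 and a median of -1.45, against 0.07 over all transcripts. No gene passed (0 of 9 by edgeR and by DESeq2), against 0% of the 56416 transcripts by edgeR and 0.231% of 56285 by DESeq2. At an unadjusted p under 0.05 the count was 6 of 9 by edgeR, namely Mbp, Mobp, Cnp, Mal, Ugt8a and Ermn, against 4.11% of all transcripts at that level and 3.14% that were lower in B. Mal, with a log2 difference of -1.82 ± 0.562 (SE, edgeR adjusted p = 0.762), was the only gene with every layer B sample below every layer C sample, as were 4.67% of all transcripts.

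Leaving out layer B sample 3 raised the count between layers A and B from 3 to 8 of 9, against 20.4% of all transcripts. The exception was Mag (log2 1.85, edgeR adjusted p = 0.127), and the differences of the 9 ran from 1.77 for Mbp to 3.34 for Mal with a median of 2.58. Between layers B and C 2 of 9 then passed, Mal at -3.09 and Ermn at -3.25 (edgeR adjusted p = 0.0334 and 0.0404), against 0.0305% of all transcripts, and the median was -2.53. The low mean levels of layer B thus came from its samples 1 and 2. Leaving out layer C sample 3 kept the count between layers A and B at 3, against 15.7% of all transcripts, and moved the median between layers B and C to -0.48, with Mog and Mag on the other side of 0 at 0.10 and 0.43. With layer A sample 1, layer B sample 1 or layer B sample 2 left out, no gene passed between layers A and B, against 9.92%, 10.4% and 13.01% of all transcripts. With layer A sample 2 or layer C sample 1 left out 1 of 9 did, against 11.3% and 13.9%.

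**Figure D2:**
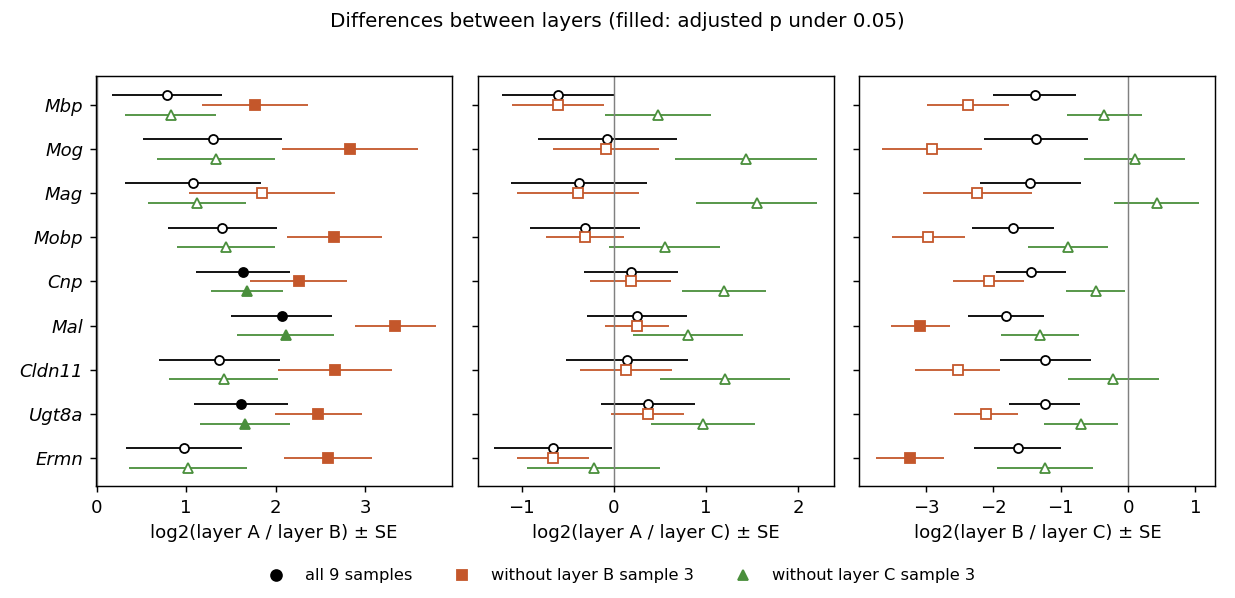
Log2 difference with its SE for each myelin gene (x axis) between layers A and B, A and C, and B and C, from all 9 samples (circles), without layer B sample 3 (squares) and without layer C sample 3 (triangles). Filled symbols passed at an adjusted p under 0.05; 3 genes are filled from all samples between A and B, and 8 without layer B sample 3.

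In layer B the level in sample 3 was 2.45-fold to 6.83-fold that of the mean of samples 1 and 2, with a median over the 9 genes of 4.90. The same ratio in layer C was 2.00 to 9.25 with a median of 3.95, and in layer A 0.564 to 2.30 with a median of 1.35. Sample 3 was thus the highest of its layer for 9 of 9 genes in B and in C and for 7 of 9 in A. Summed over the 9 genes, the level was 175, 147 and 236 CPM in layer A, 37.9, 39.6 and 152 in layer B, and 124, 112 and 417 in layer C. The precursor markers lay closer together within these layers, with a sum in layer B of 23.02, 27.02 and 32.95 CPM and in layer C of 50.1, 65.7 and 61.9. Most other lists were also higher in sample 3 of layer B. The ratio of the summed level in sample 3 to the mean of samples 1 and 2 was 3.93 for the 9 genes, 5.11 for GABAergic neuron markers, 3.74 for meningeal, 2.71 for microglial, 2.32 for general neuron and 2.31 for endothelial markers, and 0.909 for glutamatergic neuron markers. For the summed astrocyte level it was 1.66, and the ratio of the 10 astrocyte markers taken singly ran from 0.865 to 5.42 with a median of 2.498. Their part in the myelin difference was not tested.

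The rest of the myelin programme was examined through lists that do not contain the 9 genes. Of all transcripts 16.5% passed between layers A and B, 10.7% with the higher level in A, and 11.3% passed between A and C. Without layer B sample 3, 20.4% passed between A and B and 17.5% between A and C. The lists take 1 transcript a gene, and a fit with 1 transcript a gene called 24.3% and 18.3% of genes. Of the compact myelin and membrane proteins 5 of 13 tested were higher in layer A than in B and none was lower (median log2 1.42), and 8 of 13 were higher without layer B sample 3. Those that passed included the tetraspanin genes Cd9 (2.46) and Cd82 (3.48) and the glial connexin gene Gjc3 (2.06). Opalin, a late oligodendrocyte membrane protein, was low throughout at 0.846 ± 0.563, 0.370 ± 0.355 and 1.35 ± 1.78 CPM (SD, n = 3) in layers A, B and C and did not pass. Between A and C none of the 13 passed, and 3 were higher in A without layer C sample 3.

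Of the myelin lipid and metabolic enzymes 5 of 14 were higher in layer A than in B, among them Trf, the iron carrier transferrin (log2 2.05), the carbonic anhydrase gene Car2 (2.82), Apod (3.63) and Ndrg1 (2.00). Car2 and Apod were also higher in A than in C, at 2.21 and 2.95, and made the 2 of 14 called there. Both are also made outside oligodendrocytes. Without layer B sample 3 the lipid and metabolic enzymes higher in A were 8 of 14 against B and 4 of 14 against C. Of the cytoskeletal genes and septins 3 of 9 were higher in A and 1 was lower: Bcas1 (1.77), Plekhb1 (2.80) and Sept2 (1.64) were higher and Sept8 (-1.01) was lower, and without layer B sample 3 5 of 9 were higher and Sept8 no longer passed. Plekhb1 (1.7998) and Sept2 (1.55) were also the 2 of 9 higher in A than in C. Of 12 genes of cholesterol synthesis, which supplies myelin with its main sterol, 1 was higher in A than in B, Lss (0.97), and 4 were without layer B sample 3. Sc5d (1.19) was the 1 of 12 higher in A than in C, and without layer B sample 3 these were 4 of 12. From all 9 samples, the 1 of 12 in each comparison lay below the share of all transcripts that passed.

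Transcription factors and markers of earlier stages of the lineage also differed between layers A and B. Of all transcripts 10.7% passed with the higher level in A against B, and 11.3% passed between A and C. Of 11 oligodendrocyte transcription factors 7 were higher in layer A than in B, including Olig2 (2.30), Sox10 (1.89), Zfp488 (2.25) and Tcf7l2 (3.48), and Tcf7l2 alone was higher in A than in C (1.98). Of 7 genes of newly formed oligodendrocytes 4 were higher in A than in B and 3 in A than in C, namely Itpr2 (2.84 and 1.81), Gpr17 (2.39 and 1.26) and Bmp4 (3.70 and 2.88). All 7 tested precursor markers were higher in A than in B, among them the receptor gene Pdgfra (2.75) and the proteoglycan genes Vcan (2.69) and Cspg4 (2.57), and Pdgfra, Gpr17 and Vcan were the 3 of 7 higher in A than in C. Pdgfra was at 45.7 ± 17.0, 6.80 ± 1.75 and 14.8 ± 2.62 CPM (SD, n = 3) in layers A, B and C. Without layer B sample 3, 8 of 11 transcription factors, 5 of 7 newly formed and 7 of 7 precursor genes were higher in A than in B. Between A and C these counts were then 1 of 11, 3 of 7 and 5 of 7. Whether these lists differed from the 9 myelin genes was not tested. From all 9 samples no gene of any list passed between layers B and C, and 0% of the 56416 transcripts did. Without layer B sample 3, 1 of 13 compact myelin genes and 1 of 6 GABAergic markers passed, both lower in B. The GABAergic marker was Sst (log2 -3.90, edgeR adjusted p = 0.00396). Of all transcripts 0.0305% passed there.

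**Figure D3:**
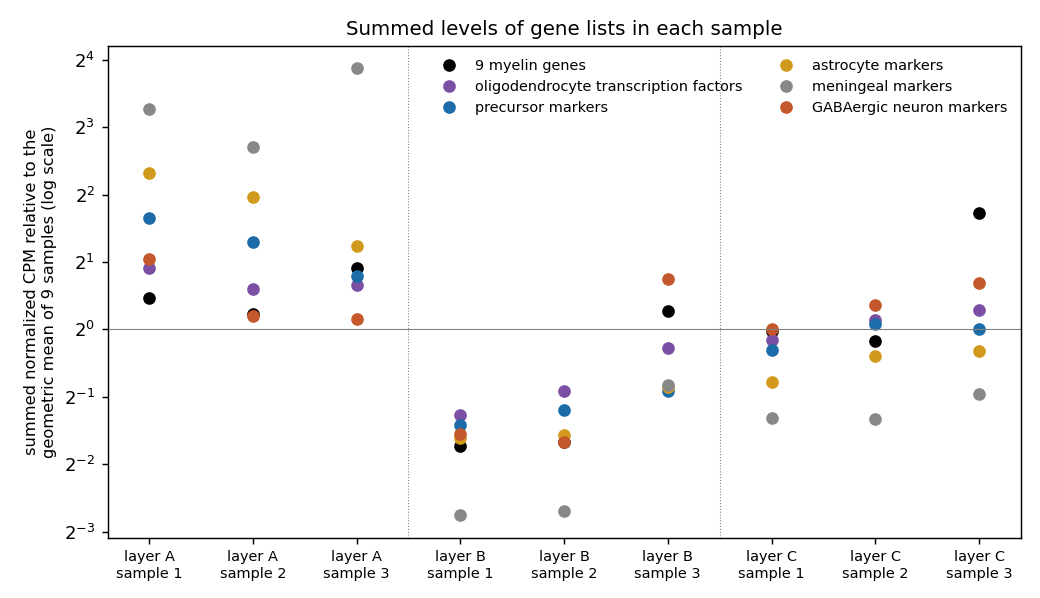
Summed normalized CPM of 6 gene lists in each sample, divided by the geometric mean of the 9 samples (y axis, log scale). The 9 myelin genes are at their highest in layer C sample 3, and all 6 lists are higher in layer B sample 3 than in samples 1 and 2. Astrocyte, precursor and meningeal markers and the oligodendrocyte transcription factors are higher in every layer A sample than in every sample of layers B and C.

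Markers of the other cells in the captured tissue moved with the layers. Of the glial and vascular lists, those that passed with the higher level in A against B were 10 of 10 astrocyte (Gfap at log2 4.29), 5 of 6 microglial, 6 of 6 endothelial and 10 of 10 meningeal markers (Dcn at 3.56). The summed meningeal level was 94.4 to 212 CPM in layer A against 2.13 to 8.18 in layers B and C. Against layer C the counts were 10 of 10, 5 of 6, 5 of 6 and 10 of 10, in the comparison where no myelin gene passed. Over all transcripts the shares were 16.5% between A and B, 10.7% with the higher level in A, and 11.3% between A and C. All 5 general neuron markers were lower in A than in B, the glutamatergic marker Slc17a7 was at 116 ± 39.8 CPM in A and 249 ± 76.04 in B (SD, n = 3, log2 -1.10, edgeR adjusted p = 0.0504), and the GABAergic marker Gad1 did not pass (0.53), although it did without layer B sample 3 (2.02, edgeR adjusted p = 0.000498). Of 6 glutamatergic markers Camk2a was higher in A (1.87) and 2 were lower, Neurod2 (-1.62) and Tbr1 (-1.06), and of 6 GABAergic markers only Gad2 passed, higher in A (1.91), against 3 of 6 without layer B sample 3 (Gad1, Gad2 and Slc32a1). Defining markers of peripheral myelin were low: Prx held 1 to 21 counts per sample and Pmp2 was at 0 in all 9. Only Pmp22, which fibroblasts and vessels also express, and Egr2, which neurons also express, were high enough to test (2 of 7, Pmp22 higher and Egr2 lower in A). Of 6 olfactory ensheathing glia markers 2 were higher in A than in B, Sox10 and Fabp7 (2.65), and Frzb was lower (-1.68). The part of these cells in the myelin differences was not tested.

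The gene Mbp has 16 transcripts in the tables, and 11 of them held counts within 2% of the highest, the lowest at 98.8%, so the same reads were counted on several transcripts and these 11 are not separate measurements. Transcripts that begin at the distant upstream start, known as golli-Mbp, are made in neurons and immune cells as well as in oligodendrocytes. One of these, Mbp-205, was at 24.3, 23.2 and 26.3 CPM in layer A, 19.6, 18.1 and 20.1 in layer B, and 33.9, 28.0 and 42.0 in layer C. Its layers did not overlap, its level in sample 3 of layer B was close to those of samples 1 and 2, and it passed in no comparison (edgeR adjusted p = 0.433 for A against B, 0.294 for A against C and 0.799 for B against C). Of all transcripts 17.2% had every layer A sample above every layer B sample, and 4.67% had layer B below layer C. The share with all layers apart was not computed. The ratio of its counts to those of the transcript standing for Mbp was 0.740, 0.430 and 0.264 in layer A, 1.09, 0.905 and 0.285 in layer B, and 0.651, 0.730 and 0.217 in layer C. Part of Mbp-205 overlaps the classic start, so some reads are counted on both. Mbp-213, which also begins upstream but ends near the end of Mbp-202, was at 1.06, 2.15 and 2.33 CPM in layer B. In layer C it was at 3.56, 3.76 and 9.95. Mbp-208, which ends before the classic start, held only 2 to 50 counts per sample. It was at 0.169, 0.200 and 0.1496 CPM in layer A, below every sample of layers B and C except layer B sample 3 (0.187), which lay between layer A samples, and it did not pass (log2 A over C -1.73, edgeR adjusted p = 0.157).

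**Figure D4:**
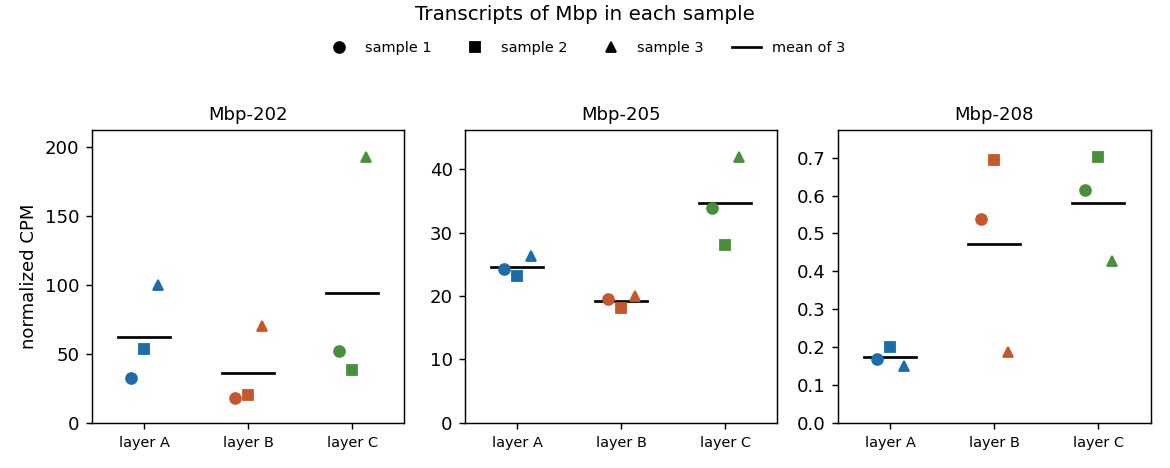
Normalized CPM (y axis, linear from 0, one scale for each transcript) of Mbp-202, which stands for Mbp, of Mbp-205, which begins at the upstream start, and of Mbp-208, which ends before the classic start, in the samples of each layer. In Mbp-202, sample 3 of layers B and C stands far above samples 1 and 2. In Mbp-205, sample 3 is also the highest of each layer, by less, and the layers do not overlap.

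Ratios within a sample, which do not depend on its depth or scaling, were not constant among the 9 genes. Counts of Mbp over those of Mal were 0.651, 1.96 and 2.41 in layer A, 4.72, 4.57 and 3.47 in layer B, and 2.504, 1.51 and 3.58 in layer C. Each layer A ratio lay below each layer B ratio, and layer C overlapped both. Counts of Mag over those of Mal also kept layers A and B apart, with 0.0836 in layer A sample 3 and 0.105 in layer B sample 3 the closest. Counts of Mbp over those of Cnp overlapped (3.35 in layer A sample 3, 3.08 in layer B sample 1). So did those of Mbp over Mobp (2.89 in layer A sample 2, 2.70 in layer B sample 3). The pair of Mbp and Mal was chosen after its values were seen and its ratio was not tested. Over the 9 samples, log2 CPM of the genes correlated in all 36 pairs, from r = 0.616 for Mag with Ermn to 0.966 for Mobp with Mal and a median of 0.875. These correlations describe 9 libraries that share layer, depth and amplification.

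The other genes whose profile over the 9 samples lay closest to the mean of the myelin genes included, of 15161 genes, Sulf2 (r = 0.968), Stac2, Foxp2, Trf, Aspa, Satb1, Pmaip1, Bcas1 and Myrf (r = 0.936), against a median r of 0.0782 over all genes. Trf, Aspa, Bcas1 and Myrf are genes of the oligodendrocyte lineage, and Foxp2 and Satb1 are transcription factors of cortical neurons. Foxp2 held 2 and 1 counts in samples 1 and 2 of layer B, below the floor of 3, and was at 1.87 CPM in sample 3, and Myrf was at 0.562, 0.924 and 1.46 CPM. Both were thus highest in sample 3 of that layer, like the myelin genes. In layer C sample 3 the level of Myrf was 6.12 CPM and that of Foxp2 2.64, the highest of all samples for each.

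Because MYRF and SOX factors are known activators of myelin genes, the 250 bases upstream of their RefSeq starts (GRCm38.p6) were searched on both strands for the core letters bound by MYRF, CTGGCAC or CTGGTAC. Of the 8 genes with an entry, 3 held a match (Cnp, Mag and Mog), against 5.93% of 32851 promoter windows. The windows of these 3 are shown because they hold the match, in capitals, each read 5′ to 3′ on the strand of the gene. The Cnp window is chr11:100574689-100574938 on the plus strand, that of Mag is chr7:30914864-30915113 and that of Mog chr17:37023399-37023648, both on the minus strand.
Cnp: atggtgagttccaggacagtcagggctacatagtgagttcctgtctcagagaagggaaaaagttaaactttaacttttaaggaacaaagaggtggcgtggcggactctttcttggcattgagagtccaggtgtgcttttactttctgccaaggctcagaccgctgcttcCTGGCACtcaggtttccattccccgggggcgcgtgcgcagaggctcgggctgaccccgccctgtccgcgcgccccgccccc
Mag: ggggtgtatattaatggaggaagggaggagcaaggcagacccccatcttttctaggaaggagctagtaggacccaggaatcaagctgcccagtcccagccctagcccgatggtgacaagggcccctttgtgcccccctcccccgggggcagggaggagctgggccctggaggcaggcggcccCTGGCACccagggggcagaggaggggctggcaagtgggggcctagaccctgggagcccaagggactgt
Mog: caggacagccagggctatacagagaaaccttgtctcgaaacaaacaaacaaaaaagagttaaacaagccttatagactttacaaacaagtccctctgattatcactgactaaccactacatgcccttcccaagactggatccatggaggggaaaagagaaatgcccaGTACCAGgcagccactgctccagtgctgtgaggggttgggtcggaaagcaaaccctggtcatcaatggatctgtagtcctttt
The match began 81 bases before the start in Cnp and 68 in Mag, and 9 bases before a second RefSeq start of Mag, whose window is not shown. In Mog it lay 83 bases before the start and reads CTGGTAC on the strand opposite to the gene, so that the printed window shows GTACCAG. The starts of Cnp and Mag in RefSeq lie upstream of the first base of the transcripts counted here. The SOX letters ACAAAG or AACAAT were found upstream of 3 of 8 genes (Cnp, Mag and Mobp), against 24% of all windows, with the same limit. A match of letters is a description and not a measured site, and of these genes Cnp passed between layers A and B while Mag and Mog did not.

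Each value above belongs to 1 transcript, given here with its position in GRCm38. Mbp was taken from ENSMUST00000062446 (chr18:82554580-82584156, plus strand), Mog from ENSMUST00000102665 (chr17:37010743-37023398, minus) and Mag from ENSMUST00000040548 (chr7:30899183-30914327, minus). Mobp was taken from ENSMUST00000174193 (chr9:120149742-120181484, plus), Cnp from ENSMUST00000150414 (chr11:100575524-100581728, plus) and Mal from ENSMUST00000028854 (chr2:127633226-127656695, minus). Cldn11 was taken from ENSMUST00000046174 (chr3:31149920-31164324, plus), Ugt8a from ENSMUST00000057944 (chr3:125865271-125938619, minus) and Ermn from ENSMUST00000090940 (chr2:58045113-58052864, minus). Mag, Cldn11, Ugt8a and Ermn have 1 transcript each in the tables. Because the counted lengths are uncertain where transcripts overlap, levels were not compared between genes.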

How the data were processed

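RNA of laser-captured piriform cortex was sequenced in 9 samples, 3 of each of layers A, B and C. The authors amplified the RNA with the Ovation system, prepared strand non-specific libraries, read 50 bases from both ends and aligned to mm10. Their processing notes list bcl2fastq 1.8.4, Bowtie and HTSeq 0.5.3. They deposited raw counts per Ensembl transcript, without normalization. The amplification was without molecular identifiers, so counts may include amplified copies. The SE and SD given here include the spread between samples.

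Of 95533 identifiers, 82779 (86.6%) were found in the GENCODE annotation of GRCm38, the assembly of mm10, from which symbols were taken. A transcript was kept when 3 or more samples held 10 or more counts (56416 kept). The quasi-likelihood F-test of edgeR 4.0.16 (R 4.3.3) with TMM factors compared the layers in pairs and jointly. The fit held all 9 samples and no block, p-values were adjusted over all transcripts by Benjamini-Hochberg, and a call is an adjusted p under 0.05. The SE is the absolute log2 difference over the square root of F. Log2 CPM for correlations used a prior count of 2. DESeq2 1.42.0 and the other alternatives are given with the sensitivity of the results.

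The 9 genes, the gene lists and the rule for naming list genes (the 4 of smallest p in the test of all layers, and set defining genes) were chosen with earlier results of these data known. No 2 samples of a layer agreed within sampling noise. Upstream windows came from RefSeq. Some genes of the lists are counted in them but are not reported here by name.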

Additional observations from a re-analysis of the deposited data

How the results depend on the processing

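The direction of all 9 genes between layers A and B, with A higher, and the absence of calls between layers A and C held under every alternative run. Between layers A and B the count of 3 of 9 became 6 with the replicate block (16.3% of all transcripts, against 16.5%) and otherwise stayed within 1.5 times of 3 when no sample was left out. For any difference among the layers the count of 1 became 0 with DESeq2 size factors in edgeR, 3 with no filter on low counts, 6 with the replicate block and 3 with 1 transcript a gene, where 14.1%, 12.2%, 14.01% and 21.8% of all transcripts or genes passed, against 14.3%. Whether the replicate numbers pair the samples is not said in the labels. Deviations from the layer means correlated between -0.186 and 0.243 in same-numbered pairs, which with 3 samples a layer cannot settle it. The block is given for completeness. It turned 2 differences between A and C, to 0.53 for Mog and 0.26 for Mag. Layer B was the lowest of its number in 26 of 27 sets of gene and number.

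With each sample left out in turn, the counts ranged from 0 to 8 between A and B, 0 to 2 between B and C and 0 to 8 for any difference, where 9.92% to 20.4%, 0% to 0.0305% and 7.25% to 20.3% of all transcripts passed. The log2 difference of A over C then changed sign in Mbp (-1.11 to 0.48), Mog (-0.47 to 1.44), Mag (-0.84 to 1.55), Mobp (-0.61 to 0.55), Cnp (-0.20 to 1.20), Mal (-0.0030 to 0.80) and Cldn11 (-0.31 to 1.20), and that of B over C in Mog (-2.91 to 0.10) and Mag (-2.24 to 0.43). Mag could not be fitted with at least 10 counts asked of all 9 samples. The protein-coding transcripts of Mobp and Cnp and the list counts without a sample were chosen after seeing the data. Mog and Mag had the lowest mean counts over the samples, 138 and 149.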
